A study of Mus musculus with 12 samples.

Results

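The proteasome subunit genes were taken as the genes with symbols Psma, Psmb, Psmc, Psmd or Psme followed by a number. Of 24539 genes in the table, 43 had such a symbol. Of these, 41 had at least 10 counts in at least 3 of the 12 libraries and are described here. The other 2 were Psma8, the testis form of an alpha subunit, with at most 3 counts in a library, and Psmb11, the thymus form of a catalytic subunit, with 0 counts in all 12. At this depth 0 counts allow a level of up to 0.194 to 0.225 CPM per library, where CPM are counts scaled to a common library size.

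RNA sequencing was done on the soleus, a calf muscle of the mouse rich in slow fibres, in 4 groups of 3 libraries each. These were KO mice after exercise, WT mice after exercise, sedentary KO mice and sedentary WT mice. All were C57BL/6 on chow diet. The KO mice are labelled MCK-Dnmt3a KO, and the WT mice carry floxed Dnmt3a. MCK usually stands for the muscle creatine kinase promoter, which drives deletion in striated muscle fibres, so that other cells of the tissue would keep the gene. The sources used here give neither ages nor the kind of exercise, nor how long after it the muscle was taken. Library totals ran from 13329547 to 15480960 counts, and the libraries of a group are called a, b and c. KO exercise a and WT exercise a each carry 2 animal numbers and may be pools of 2 mice, so that each exercised group names 4 animals in 3 libraries. Dnmt3a, which encodes a de novo DNA methyltransferase, ran from 48.6 to 60.5 CPM in KO and from 113 to 180 CPM in WT muscle (6 libraries each), which checks the genotype labels. The liver gene Alb was high in KO sedentary b (329 CPM), WT exercise b (227 CPM) and WT exercise c (178 CPM), against at most 20.6 CPM in the others. The clock-controlled gene Dbp split all 4 groups, with 136 to 266 CPM in 5 libraries and 18.3 to 25.8 CPM in the other 7. The slow fibre markers that define soleus were present throughout.

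The proteasome degrades proteins tagged with ubiquitin. Its core is a barrel of alpha rings, which gate entry, around beta rings, which hold the active sites, and a regulatory cap of ATPases and non-ATPases binds, unfolds and feeds in the substrate. In the immunoproteasome, which interferon gamma induces and which leukocytes make constitutively, Psmb8, Psmb9 and Psmb10 take the places of the catalytic subunits Psmb5, Psmb6 and Psmb7 and change which peptides are cut for antigen presentation. In skeletal muscle the ubiquitin-proteasome system is the main route for breakdown of contractile proteins.

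To compare genes, CPM were divided by the length of each gene's principal transcript (CPM per kilobase, or kb). On this scale each constitutive catalytic subunit stood above the immunoproteasome subunit that takes its place. The level of Psmb6, the constitutive caspase-like subunit, averaged 139.7 ± 13.0 CPM per kb (SD, n = 12). That of Psmb7, the trypsin-like subunit, averaged 108 ± 4.7, and that of Psmb5, the chymotrypsin-like subunit, 35.4 ± 3.1 CPM per kb. Their counterparts were lower, with Psmb10 at 9.53 ± 1.3, Psmb8 at 3.48 ± 1.0 and Psmb9 at 2.28 ± 0.70 CPM per kb. Psmb8 and Psmb9 were the lowest of all 41, also when the length of all annotated exons was used. With that length Psmb6, Psmb7 and Psmb5 stood at 59.5, 36.6 and 35.4 CPM per kb. Psmb6 then ranked 8 among the members, in place of 1, and Psmb7 lay close to Psmb5. By principal transcript, among 13657 genes at the same count minimum, Psmb6 stood at percentile 97.2, Psmb7 at 96.5, Psmb10 at 64.7, Psmb8 at 40.5 and Psmb9 at 31.4.

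Among the other members the level differed widely within each role. The 4 non-catalytic beta subunits ran from 27 (Psmb3) to 94.5 CPM per kb (Psmb4). The 7 alpha subunits ran from 7.95 (Psma5) to 96.3 CPM per kb (Psma6), although every alpha ring holds each subunit once. Psma5, Psma3 (8.27) and Psma2 (18.7) stood well below the next, Psma4 (53.4 CPM per kb). The gap of Psma2 depends on the length used. With the length of all annotated exons Psma2 stood at 14.8 CPM per kb, nearer to the next alpha subunit, Psma7 (21.7 CPM per kb). The 6 ATPases of the cap ran from 42.8 (Psmc6) to 109.4 CPM per kb (Psmc3). The 11 non-ATPases ran from 23.6 (Psmd11) to 132 CPM per kb (Psmd8). The 3 chaperones of cap assembly were low, with Psmd9 at 8.66, Psmd10 at 7.23 and Psmd5 at 6.03 CPM per kb. Of the activators that can replace the cap, Psme3, the nuclear PA28 gamma, stood at 47.2 CPM per kb and Psme4, which encodes PA200, at 39.1 CPM per kb. Psme1 and Psme2, the interferon-inducible PA28 alpha and beta, stood at 28.5 and 8.50 CPM per kb. These levels depend on which transcripts the muscle uses, since the length is that of 1 annotated transcript. Psme2 has a near-identical copy in the table, Psme2b, and Psmb5, Psmb6 and Psmb7 have named pseudogenes, so reads may be split or lost there and these levels are uncertain. The exons of 12 members overlap those of another gene, and the sources used here do not say whether counting used strand. These include Psmb9 with Tap1, Psmb8 with Gm20496, Psmb7 with Nek6 and Psme1 with Emc9.

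**Figure D1:**
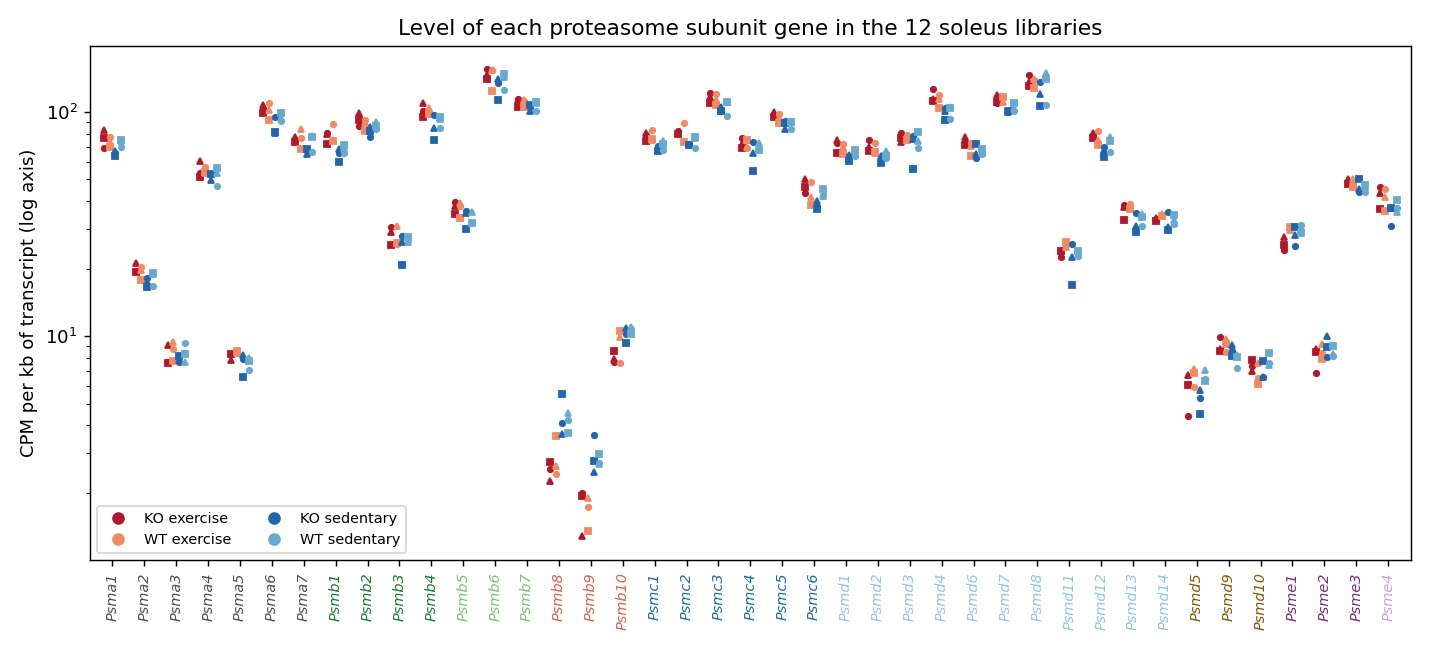
Level of the 41 proteasome subunit genes in CPM per kb of transcript on a log axis, grouped by role, with 1 point for each of the 12 libraries (colour for the group, circle a, square b, triangle c). Psmb8 and Psmb9 are the lowest and spread most, with all exercised libraries below all sedentary ones. For Psmb8 the gap is narrow, at 3.58 CPM per kb in WT exercise b and 3.64 in KO sedentary c.

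The exercise comparison, averaged over genotypes, asks how the muscle of exercised mice differed from that of sedentary mice. Of the 41 genes 2 passed the adjusted p of 0.05, and both fell: Psmb8 and Psmb9, the immunoproteasome counterparts of Psmb5 and Psmb6. Over all 13886 tested genes 2.32% passed, 1.68% lower and 0.641% higher. The third immunoproteasome subunit, Psmb10, had a change of the same sign that did not pass, and the constitutive catalytic subunits had small positive changes that did not pass.

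Psmb8 (chromosome 17, 34197721 to 34201454, plus strand, mm10) encodes the chymotrypsin-like immunoproteasome subunit. It had 4.14, 4.44 and 3.67 CPM in KO exercise a to c and 3.94, 5.82 and 4.29 CPM in WT exercise a to c, against 6.66, 8.94 and 5.93 CPM in KO sedentary and 6.90, 5.99 and 7.37 CPM in WT sedentary. All 6 exercised libraries lay below all 6 sedentary ones, the closest being WT exercise b (5.82 CPM) and KO sedentary c (5.93 CPM). The mean was 4.39 ± 0.76 CPM in exercised muscle and 6.97 ± 1.1 CPM in sedentary muscle (SD, n = 6 each), a log2 fold change of −0.67 (SE 0.142, adjusted p = 0.0382 by edgeR).

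Psmb9 (chromosome 17, 34181987 to 34187764, minus strand) encodes the immunoproteasome subunit that takes the place of Psmb6. It had 2.69, 2.61 and 1.73 CPM in KO exercise and 2.33, 1.83 and 2.56 CPM in WT exercise, against 4.90, 3.73 and 3.36 CPM in KO sedentary and 3.67, 4.02 and 3.62 CPM in WT sedentary. The groups again did not overlap. The mean was 2.29 ± 0.42 CPM in exercised and 3.88 ± 0.54 CPM in sedentary muscle (SD, n = 6 each), a log2 fold change of −0.76 (SE 0.164, adjusted p = 0.0389). Psmb8 and Psmb9 were the only members lower without overlap, where 2.16% of all tested genes were. The counts are small, 49 to 139 per library for Psmb8 and 24 to 78 for Psmb9.

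Both calls sit close to the threshold. Psmb8 was no longer called without KO exercise a or c, WT exercise a or c, KO sedentary a or b, or WT sedentary a or c (−0.69 to −0.57, adjusted p 0.0605 to 0.0974), and Psmb9 kept its call only without KO exercise b or KO sedentary c (−0.81 to −0.67 and adjusted p 0.0520 to 0.0945 without any of the other 10).

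Psmb10 (chromosome 8, 105935735 to 105938444, minus strand), which takes the place of Psmb7, had 10.01, 11.2 and 10.4 CPM in KO exercise and 9.98, 13.9 and 12.9 CPM in WT exercise, against 13.5, 12.2 and 14.2 CPM in KO sedentary and 14.0, 13.4 and 14.3 CPM in WT sedentary. WT exercise b and c lay within the sedentary range, and the change was −0.26 (SE 0.0912, adjusted p = 0.131). Psmb5 had 35.6, 31.4 and 34.2 CPM in KO exercise and 34.4, 30.2 and 35.3 CPM in WT exercise, against 32.4, 27.1 and 31.8 CPM in KO sedentary and 28.8, 28.6 and 32.3 CPM in WT sedentary (log2 fold change 0.15, adjusted p = 0.219). Exercised and sedentary libraries of Psmb5 overlapped.

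Psmb6 had 124, 112 and 116 CPM in KO exercise and 122, 99.3 and 122 CPM in WT exercise, against 108, 90.3 and 112 CPM in KO sedentary and 100.5, 117 and 115 CPM in WT sedentary (0.12, adjusted p = 0.376). Psmb7 had 132, 122 and 131 CPM in KO exercise and 130, 122 and 132 CPM in WT exercise, against 122, 125 and 117 CPM in KO sedentary and 117, 129 and 127 CPM in WT sedentary (0.063, adjusted p = 0.471). Exercised and sedentary libraries overlapped for both genes, and the change of Psmb7 turned to −0.032 when libraries were scaled by their totals alone.

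**Figure D2:**
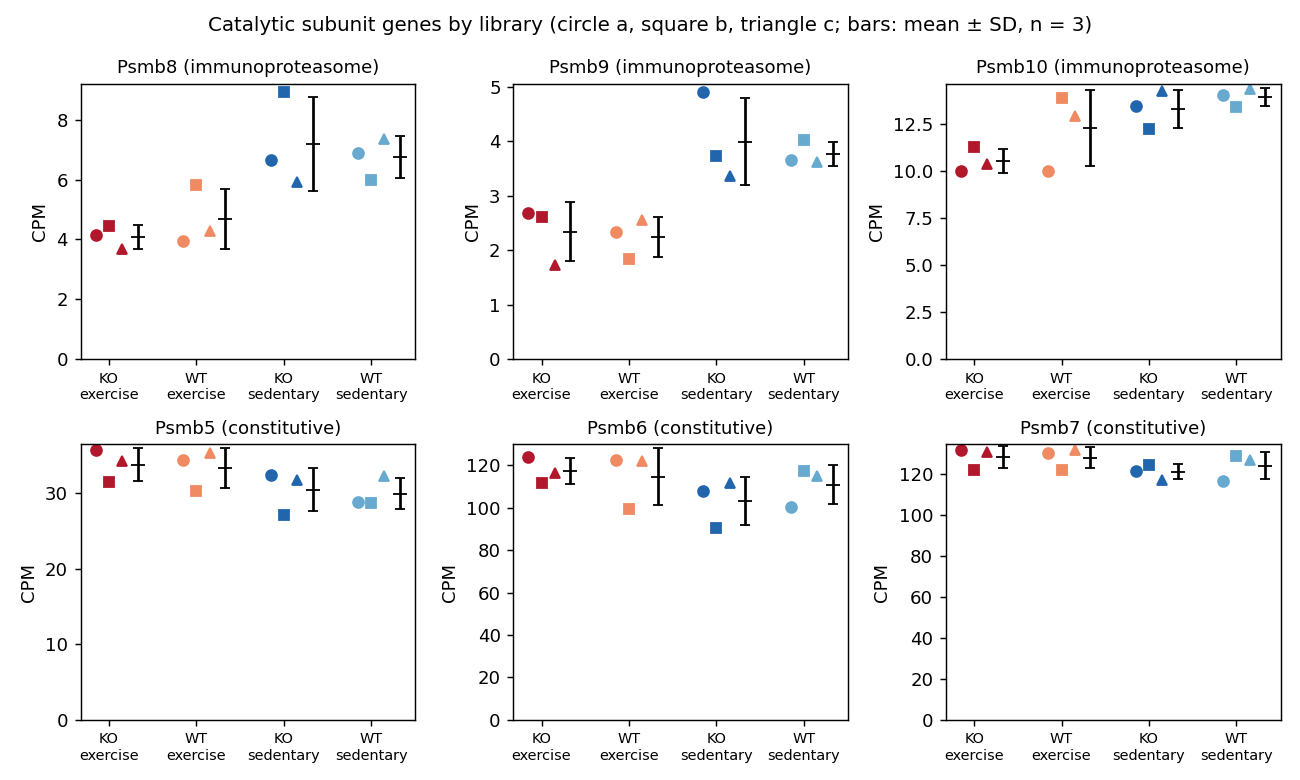
CPM of the immunoproteasome subunits (upper row) and their constitutive counterparts (lower row) in each library by group, with the mean and SD of the 3 libraries beside the points. Psmb8 and Psmb9 separate exercised from sedentary libraries, Psmb10 does so in KO, and the constitutive subunits differ little between groups.

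The sequences before the gene starts are shown for the 2 genes that fell and for the constitutive subunits they replace. These are the 250 bases upstream of the RefSeq gene start in GRCm38.p6, written 5′ to 3′ on the gene's own strand. This start differs from that of the gene coordinates given above, which are those of GENCODE: it lies 474 bases inside the GENCODE gene for Psmb8 and 434 for Psmb9, so that both windows fall within those coordinates, and 27 bases inside for Psmb5. Capitals mark a match to TTCNNNGAA (the core of the interferon gamma-activated site) in Psmb8, a CCAAT box read on the other strand in Psmb9, and TGACNNNGC (a core of the antioxidant response element) in Psmb5 and Psmb6.
Psmb8 (chr17:34197945-34198194, plus strand): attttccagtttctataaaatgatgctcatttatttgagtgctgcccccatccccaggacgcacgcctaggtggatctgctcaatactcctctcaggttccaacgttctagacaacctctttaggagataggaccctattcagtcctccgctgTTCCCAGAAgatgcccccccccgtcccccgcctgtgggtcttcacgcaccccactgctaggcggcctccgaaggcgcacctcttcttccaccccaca
Psmb9 (chr17:34187331-34187580, minus strand): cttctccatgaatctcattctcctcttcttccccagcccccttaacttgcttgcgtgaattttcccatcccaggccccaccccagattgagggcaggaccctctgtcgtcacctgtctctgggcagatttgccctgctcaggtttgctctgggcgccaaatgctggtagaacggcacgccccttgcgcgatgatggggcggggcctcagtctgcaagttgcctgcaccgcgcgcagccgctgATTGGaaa
Psmb5 (chr14:54617996-54618245, minus strand): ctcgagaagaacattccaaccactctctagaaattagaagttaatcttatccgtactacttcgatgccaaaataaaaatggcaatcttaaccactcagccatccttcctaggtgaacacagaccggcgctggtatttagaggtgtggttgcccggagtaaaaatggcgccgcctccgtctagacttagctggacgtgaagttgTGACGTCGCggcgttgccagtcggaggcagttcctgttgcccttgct
Psmb6 (chr11:70525107-70525356, plus strand): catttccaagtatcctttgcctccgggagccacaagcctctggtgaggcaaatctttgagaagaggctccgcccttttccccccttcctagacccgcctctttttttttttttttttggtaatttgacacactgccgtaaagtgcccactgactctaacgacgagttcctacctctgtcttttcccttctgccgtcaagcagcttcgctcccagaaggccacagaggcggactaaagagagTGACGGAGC

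The match in Psmb8 begins 97 bases before the RefSeq start, that in Psmb9 8, that in Psmb5 47 and that in Psmb6 9 bases before it, and none overlaps another match. Motifs were searched on both strands. Such short motifs are common: TGACNNNGC stood in 10.16% of all 32851 RefSeq promoter windows of this length and in 13.16% of 38 windows of 35 members, and CCAAT in 33.85% and 34.21%. TTCNNNGAA stood in 7.02% of all windows and in 2.63% of the members' windows, and Psmb8 was the only member with it. CCGGAAGT, an ETS site, stood in 2.88% of all windows and in 15.8% of the members' windows (6 windows of 5 members, Psmc1, Psmc2, Psmd12, Psmd6 and Psme4). The core of the interferon-stimulated response element stood in 2.98% of all windows and in 3 members, Psmb3, Psmd4 and Psmd9. TGAGNNNGC, the other antioxidant response core, stood in 14.38% of all windows and 23.68% of the members' windows. Psmb1, Psmb2, Psmb7, Psmc3, Psmd3 and Psmd7 had no window.

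As a share of each catalytic pair on the CPM per kb scale, the immunoproteasome form was a minority in every library. Psmb8 made up 6.03%, 7.24% and 5.59% of Psmb8 plus Psmb5 in KO exercise and 5.96%, 9.62% and 6.29% in WT exercise, against 10.2%, 15.4% and 9.35% in KO sedentary and 11.7%, 10.4% and 11.2% in WT sedentary. WT exercise b thus overlapped the sedentary range. Psmb9 made up 0.867% to 1.36% of its pair with Psmb6 in exercised muscle and 1.75% to 2.61% in sedentary muscle, with no overlap. Psmb10 made up 6.29% to 9.13% of its pair with Psmb7 in exercised and 7.98% to 9.69% in sedentary muscle, with overlap. The shares depend on the lengths used: with the length of all annotated exons, Psmb8 made up 2.77% to 4.87% in exercised and 4.73% to 8.05% in sedentary muscle, while Psmb10 made up 13.2% to 18.6% in exercised and 16.4% to 19.6% in sedentary muscle. The difference in the mean log2 ratio of the pair's counts, exercised minus sedentary, was −0.82 for Psmb8 over Psmb5, −0.89 for Psmb9 over Psmb6 and −0.33 for Psmb10 over Psmb7. These ratios of counts depend on neither library scaling nor length, and they were not tested.

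**Figure D3:**
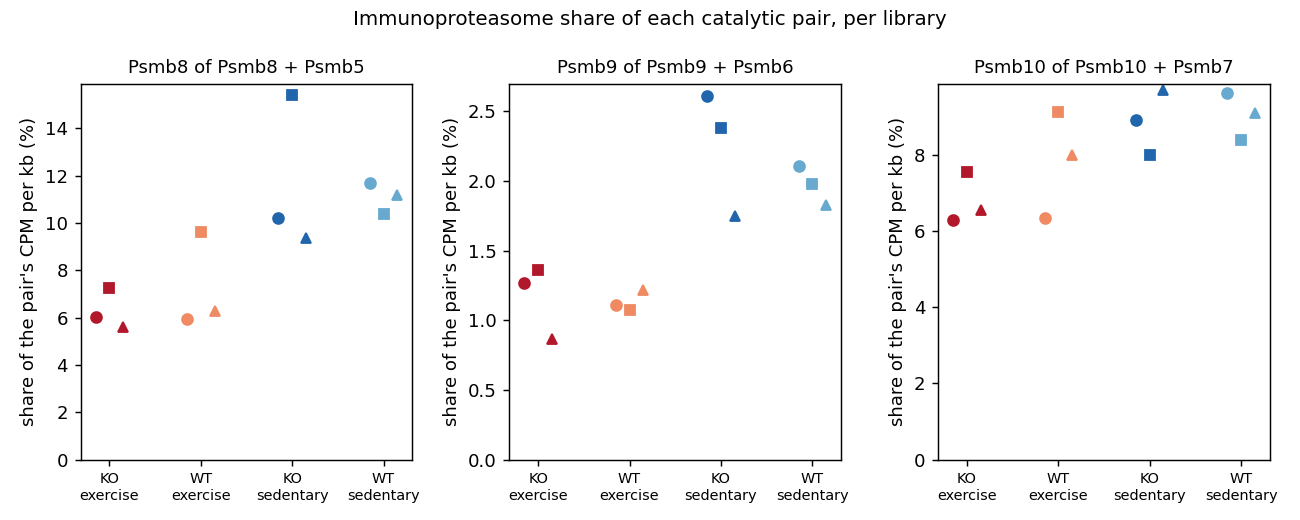
Share of the immunoproteasome form in the summed CPM per kb of each catalytic pair, in percent, for each library by group (circle a, square b, triangle c). The Psmb9 share separates the 6 exercised from the 6 sedentary libraries, at 0.867% to 1.36% and 1.75% to 2.61%.

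Some genes known to be induced with the immunoproteasome also fell in exercised muscle. Of 20 interferon-driven regulators and genes of antigen presentation, 6 fell, 0 rose and 19 had negative changes (median −0.39). Within genotypes the median was −0.52 in KO and −0.21 in WT mice. There 0 of the 20 passed in KO (0% of all genes) and 0 in WT (0.0216% of all genes). Tap1, the peptide transporter gene next to Psmb9 whose exons overlap it, had 5.66, 5.29 and 3.88 CPM in KO exercise and 4.59, 5.82 and 5.81 CPM in WT exercise, against 10.4, 10.6 and 7.64 CPM in KO sedentary and 9.13, 7.38 and 9.31 CPM in WT sedentary (−0.80, adjusted p = 0.0159). Nlrc5, the transactivator of MHC class I genes, fell by 0.83 (adjusted p = 0.0256), from low levels. It had 2.00, 1.70 and 1.15 CPM in KO exercise, against 4.09, 3.54 and 4.28 CPM in KO sedentary. The difference was smaller in WT mice, with 2.25, 1.96 and 2.42 CPM in WT exercise, against 2.80, 2.63 and 3.15 CPM in WT sedentary. Tapbp (−0.27), which loads peptide onto class I molecules, B2m (−0.30) and H2-K1 (−0.46), which encode class I chains, and Irf1 (−0.60), an interferon-regulated transcription factor, fell as well (adjusted p 0.0256 to 0.0485). Psme1 and Psme2, which interferon gamma also induces, did not pass. Psme2 had 6.56, 8.17 and 8.41 CPM in KO exercise and 8.05, 7.59 and 8.86 CPM in WT exercise, against 7.73, 8.62 and 9.62 CPM in KO sedentary and 7.83, 8.69 and 8.04 CPM in WT sedentary, with overlap (−0.085, adjusted p = 0.635), and Psme1 had a change of −0.065 (adjusted p = 0.561).

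Markers of leukocytes had changes of the same sign as these genes. Of 18 leukocyte and macrophage markers 0 passed the test by edgeR, but all 18 had negative changes (median −0.77), and none was at 0 in all libraries. In KO mice their median was −1.13 and in WT mice −0.43, with all 18 negative in both. Their summed level was 182, 327 and 182 CPM in KO exercise and 181, 330 and 204 CPM in WT exercise, against 430, 953 and 346 CPM in KO sedentary and 378, 232 and 381 CPM in WT sedentary. WT sedentary b, at 232 CPM, lay below KO exercise b and WT exercise b. Its Psmb8 (5.99 CPM) and Psmb9 (4.02 CPM) were above theirs (4.44 and 5.82 CPM for Psmb8, 2.61 and 1.83 CPM for Psmb9). For Psmb8 the difference from WT exercise b was slight, at 91 against 89 counts. Psmb10 of WT sedentary b (13.4 CPM) was above that of KO exercise b (11.2 CPM) but below that of WT exercise b (13.9 CPM). KO sedentary b had the highest marker sum and the highest Psmb8, but not the highest Psmb9. Of 10 endothelial markers 9 had negative changes and 4 fell, and of 7 markers of fibro-adipogenic progenitors 7 had negative changes and 1 fell. All 6 adipocyte markers (median −0.97) and all 5 erythrocyte markers (median −0.54) had negative changes, and 0 passed. In WT mice alone the erythrocyte median was 0.082. Of 10 liver markers 7 had positive changes and 0 passed. Lymphocyte markers were near the floor of detection, with a summed level of 0.196 to 1.62 CPM in 11 libraries and 13.7 CPM in KO sedentary b. In whole muscle, fewer cells of a type and less RNA per cell cannot be told apart, and the part of other cell types in the change of Psmb8 and Psmb9 was not tested.

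**Figure D4:**
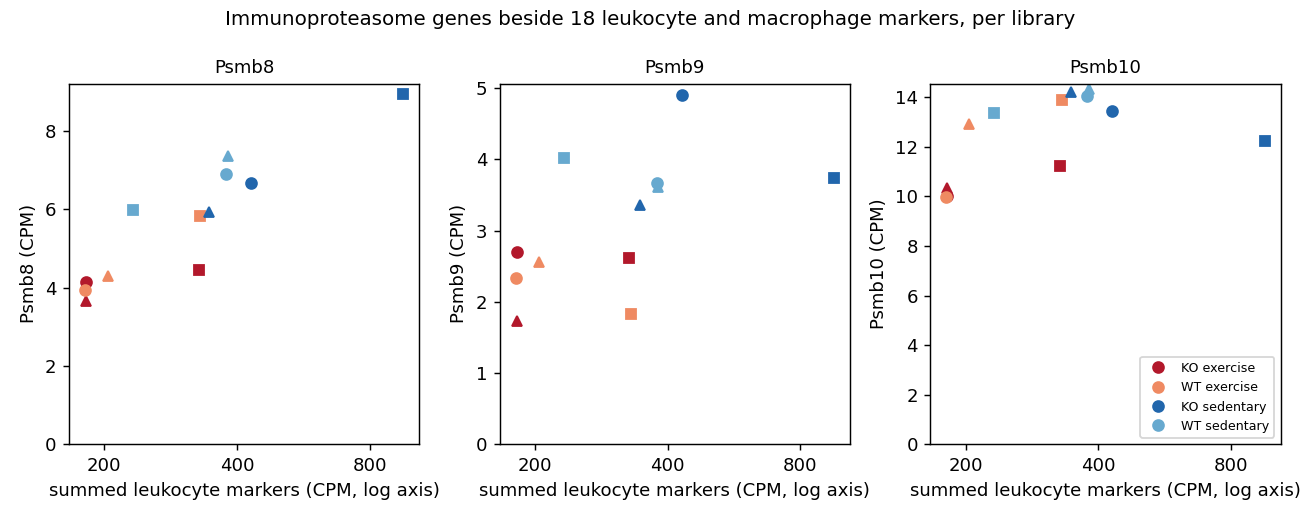
CPM of Psmb8, Psmb9 and Psmb10 in each library against the summed CPM of 18 leukocyte and macrophage markers on a log axis (colour for the group, circle a, square b, triangle c). Exercised libraries reach at most 330 CPM of markers. WT sedentary b, at 232 CPM, has more Psmb8 and Psmb9 than the exercised libraries at 327 and 330 CPM. Its Psmb8 is only slightly above that of WT exercise b, and its Psmb10 is below it.

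The members other than Psmb8, Psmb9 and Psmb10 are called the constitutive members here. They include the interferon-inducible Psme1 and Psme2 and the 3 assembly chaperones. Most of them had small positive changes with exercise, and 0 passed the test by edgeR. Of the 38 genes other than the immunoproteasome subunits, 35 had a positive change (median 0.12), where 50.1% of all tested genes did and the median of all was 0.00034. At an unadjusted p under 0.05 there were 15 of the 41 members higher and 3 lower, against 9.15% and 13.7% of all genes. All 7 alpha subunits, 7 constitutive beta subunits, 6 ATPases and 11 non-ATPases were positive, with role medians of 0.11 (alpha), 0.15 (non-catalytic beta), 0.12 (catalytic beta), 0.14 (ATPases) and 0.12 (non-ATPases). The 3 negative ones were Psme1, Psme2 and Psmd10 (−0.066), the assembly chaperone also called gankyrin. When libraries were scaled by their totals alone, the median of all genes shifted to −0.094 and that of the 41 members to 0.018, with 28 positive. The members' median lay 0.11 above that of all genes under both scalings. Slow fibre markers had changes of the same sign. Their summed level was 37198 to 40438 CPM in KO exercise and 31923 to 41090 CPM in WT exercise, against 27003 to 33679 CPM in KO sedentary and 28116 to 38443 CPM in WT sedentary. All 7 of these markers had positive changes (median 0.24) and 0 passed. Their part in the changes of the constitutive members was not tested.

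The largest of these positive changes was that of Psmb1, a non-catalytic beta subunit, with 142, 126 and 141 CPM in KO exercise and 155, 130 and 131 CPM in WT exercise, against 115, 106 and 120 CPM in KO sedentary and 116, 125 and 122 CPM in WT sedentary. The groups did not overlap, and the change was 0.23 (SE 0.0633, adjusted p = 0.0748). Psmc1, an ATPase, had 126, 118 and 128 CPM in KO exercise and 132, 121 and 119 CPM in WT exercise, against 113, 107 and 111 CPM in KO sedentary and 107, 115 and 118 CPM in WT sedentary (0.15, adjusted p = 0.123). It did not overlap either, nor did Psmd7, which pairs with the deubiquitinase Psmd14, while 1.09% of all genes were higher without overlap. Psmd7 had 173, 174 and 188 CPM in KO exercise and 184, 184 and 174 CPM in WT exercise, against 158, 160 and 157 CPM in KO sedentary and 159, 172 and 164 CPM in WT sedentary (0.15, adjusted p = 0.105). The gaps were narrow for all of these genes. The lowest exercised level against the highest sedentary one was 125.86 against 125.39 CPM for Psmb1. It was 118.15 against 117.87 CPM for Psmc1 and 173.26 against 172.48 CPM for Psmd7. Psmb1 and Psmd7 were chosen for description after their values were seen.

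Among the other roles, Psmd4, a ubiquitin receptor of the cap, had 169, 150 and 153 CPM in KO exercise and 159, 139 and 152 CPM in WT exercise, against 139, 122 and 135 CPM in KO sedentary and 124, 138 and 141 CPM in WT sedentary. Only WT exercise b lay within the sedentary range (0.21, SE 0.0614, adjusted p = 0.0927). Psma6 of the alpha ring had 108, 103 and 112 CPM in KO exercise and 114, 96.3 and 106 CPM in WT exercise, against 99.4, 84.9 and 84.1 CPM in KO sedentary and 95.1, 103 and 98.2 CPM in WT sedentary (0.18, adjusted p = 0.122). Here WT exercise b again lay within the sedentary range. Psme4 had 300.4, 239 and 283 CPM in KO exercise and 294, 234 and 271 CPM in WT exercise, against 201, 241 and 243 CPM in KO sedentary and 242, 262 and 233 CPM in WT sedentary (0.19, SE 0.0803, adjusted p = 0.187). The b libraries of both exercised groups were within the sedentary range. DESeq2 called Psmb1, Psmd4 and Psmd7 higher besides Psmb8 and Psmb9, where it called 7.3% of all genes. Psmb1 was also called by edgeR without KO exercise b (4.93% of all genes), and Psmb1 and Psmd4 with Dbp as a covariate (5.78% of all genes).

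**Figure D5:**
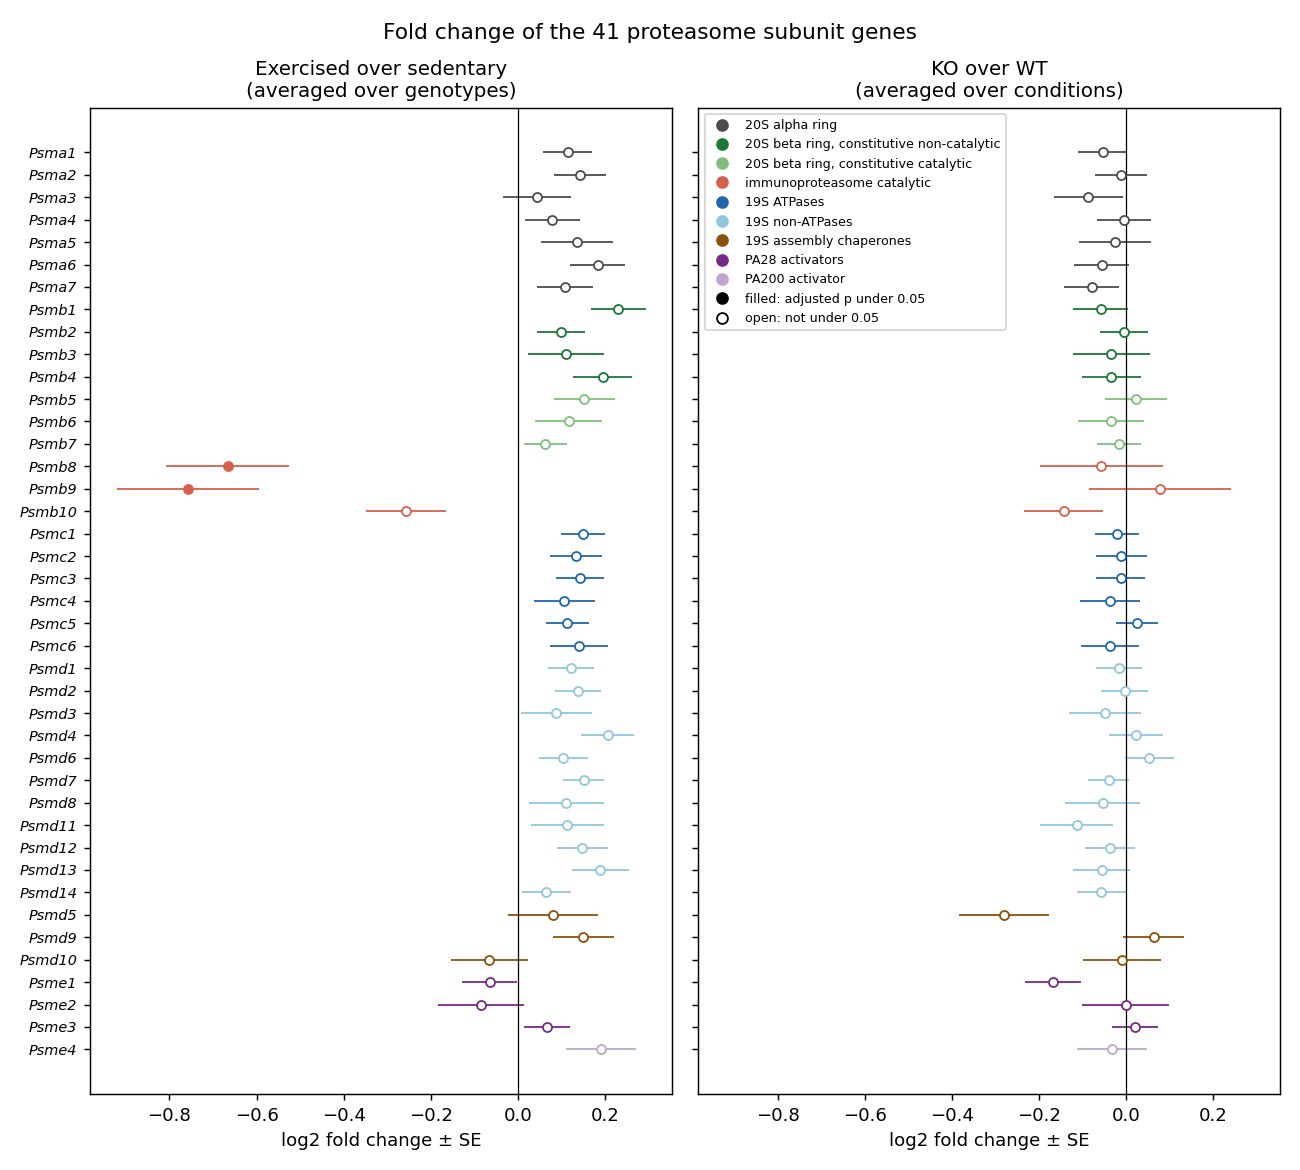
Log2 fold change ± SE of the 41 proteasome subunit genes from edgeR for exercised over sedentary muscle (left) and KO over WT muscle (right), coloured by role, with filled points for an adjusted p under 0.05. Psmb8 (−0.67) and Psmb9 (−0.76) are filled on the left and lie apart from the 35 positive changes, and no point is filled on the right.

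Within the genotypes the exercise comparison has 3 libraries on each side. In KO mice Psmb8 had 4.08 ± 0.39 CPM after exercise and 7.18 ± 1.6 CPM at rest (−0.81, SE 0.201, adjusted p = 0.147), and Psmb9 2.34 ± 0.54 and 4.0 ± 0.81 CPM (−0.77, SE 0.230, adjusted p = 0.162). In WT mice Psmb8 had 4.69 ± 1.0 CPM after exercise and 6.75 ± 0.70 CPM at rest (−0.52, SE 0.200, adjusted p = 0.427), and Psmb9 2.24 ± 0.37 and 3.77 ± 0.22 CPM (−0.75, SE 0.233, adjusted p = 0.353). The direction was the same in both genotypes, and none of these changes passed. Of the members 0 passed by edgeR in KO (0% of all genes) and 0 in WT (0.0216% of all genes), with 19 and 4 at an unadjusted p under 0.05 (17.9% and 9.41% of all genes). limma-voom also called 0 in both, while DESeq2 called Psmb8 in KO (−0.80, adjusted p = 0.033, with 2.69% of all genes called) and 0 in WT.

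Among the constitutive members 17 were higher without overlap in exercised KO mice (10.3% of all genes) and 8 in exercised WT mice (6.65% of all genes). The members' median change was 0.17 in KO and 0.064 in WT mice, beside −0.0096 and 0.0041 for all genes. Scaling by library totals moved the median of all genes in KO to −0.12 and left the members 0.18 above it. In WT the same scaling turned the members' median to −0.017, with 16 of 41 positive in place of 34, and the median of all genes to −0.077. Without each library in turn the WT median ran from 0.035 (WT sedentary a) to 0.11 (WT exercise b). KO sedentary b was the lowest library for 20 of the 38 genes, with a median deviation of −0.16 from each gene's mean on the log2 scale, and without it the KO median was 0.13. It also had the lowest slow fibre marker sum (27003 CPM) and the highest fast fibre marker sum (67945 CPM) of the 12 libraries.

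The interaction, which asks whether exercise acted differently in KO than in WT mice, passed for 0 of 41 members by edgeR (0% of all genes), DESeq2 or limma-voom, with 1 member at an unadjusted p under 0.05 (3.1% of all genes). Psmb8 had a difference of −0.29 (SE 0.283, adjusted p = 1.0) and Psmb9 of −0.018 (SE 0.330). The median of the members was 0.091 with 31 of 41 positive, 0.040 without KO sedentary b, and 0.020 with 22 positive without the 3 libraries high in Alb. The member at an unadjusted p under 0.05 was Psmc6, an ATPase of the cap (0.31, SE 0.133, unadjusted p = 0.0395, adjusted p = 1.0). It was chosen after its values were seen. It had 97.3, 103 and 113 CPM in KO exercise and 109, 85.9 and 93.7 CPM in WT exercise, against 83.8, 82.1 and 89.7 CPM in KO sedentary and 95.1, 102 and 94.6 CPM in WT sedentary. In KO mice all exercised libraries were above all sedentary ones, and in WT mice they overlapped.

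The genotype comparison asks what the muscle knockout of Dnmt3a did to proteasome transcripts. By edgeR 0 of 41 members passed in sedentary mice (0.0288% of all genes), 0 in exercised mice (0.0216%) and 0 averaged over conditions (0.0576%), and DESeq2 and limma-voom called 0 as well. At an unadjusted p under 0.05 there were 1, 1 and 2 members (4.83%, 3.38% and 4.5% of all genes). The members' median was −0.076 in sedentary mice (−0.042 without KO sedentary b), 0.021 in exercised mice and −0.034 averaged over both, where 7 of 41 were positive (47.8% of all genes). The median of all genes was 0.0026 in sedentary mice, −0.011 in exercised mice and −0.0058 averaged over both. The members' median in exercised mice was −0.011 without KO exercise a, −0.013 without WT exercise b and −0.035 without the 3 libraries high in Alb. The median of all genes in these settings was −0.013, −0.0030 and 0.0066. Without each library in turn the averaged median ran from −0.045 (WT sedentary a) to −0.011 (KO sedentary b or WT exercise a), with 6 to 16 members positive.

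The member with the smallest p was Psmd5, a chaperone that holds cap ATPases during assembly (chromosome 2, 34849734 to 34874968, minus strand). It had 19.4, 26.7 and 29.5 CPM in KO exercise, against 26.1, 30.2 and 31.3 CPM in WT exercise, and 23.4, 19.8 and 25.2 CPM in KO sedentary, against 28.2, 27.6 and 31.0 CPM in WT sedentary. The genotypes did not overlap in sedentary mice and overlapped after exercise, and the averaged change was −0.28 (SE 0.103, unadjusted p = 0.0184, adjusted p = 1.0). Over all alternative settings and sets of libraries left out, this averaged change ran from −0.34 to −0.15. Psme1 (chromosome 14, 55578123 to 55581529, plus strand) had 26.8, 28.3 and 30.6 CPM in KO exercise, against 33.2, 34.2 and 33.2 CPM in WT exercise, and 28.0, 34.2 and 31.5 CPM in KO sedentary, against 34.7, 32.2 and 33.8 CPM in WT sedentary. Here the genotypes were apart only after exercise (averaged change −0.17, SE 0.0633, unadjusted p = 0.0205, adjusted p = 1.0). In sedentary mice Psma1, Psmc6 and Psmd5 were lower without overlap (4.87% of all genes), and in exercised mice Psma5, Psmd11, Psmd14 and Psme1 (3.49%), with no member in both sets.

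Elsewhere the genotypes differed by less than this. Psma3, with the largest change among the alpha subunits (−0.087), had 21.9, 21.7 and 26.1 CPM in KO exercise, against 24.9, 22.0 and 26.9 CPM in WT exercise, and 21.8, 23.3 and 22.3 CPM in KO sedentary, against 26.4, 23.6 and 21.8 CPM in WT sedentary. Psmc4, with the largest change among the ATPases (−0.037), had 110.4, 99.7 and 104 CPM in KO exercise, against 99.1, 108 and 100.3 CPM in WT exercise, and 105, 78.6 and 94.9 CPM in KO sedentary, against 98.2, 96.9 and 104 CPM in WT sedentary. KO and WT overlapped in both conditions for both genes. The change of Psmc4 turned positive without KO sedentary b (0.017). The immunoproteasome subunits had averaged changes of −0.056 (Psmb8), 0.078 (Psmb9) and −0.14 (Psmb10) between KO and WT. Those of Psmb8 and Psmb9 changed sign without single libraries, and that of Psmb10 without the 3 libraries high in Alb (0.035).

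As a set of transcripts the constitutive members varied little. Their coefficient of variation (CV) within groups ran from 3.46% (Psmd7) to 13.25% with a median of 6.88%. The median was 10.2% over 8508 tested genes of the same count range. That range is wide, with mean counts of 122 to 3758, and the genes were not matched to the members on count. The median of the members' mean counts was 1454. Psmb7 differed by a factor of 1.13 between its highest library, KO exercise a, and its lowest, WT sedentary a. Psmb10, Psmb8 and Psmb9 varied by 9.76%, 16.8% and 17.6% within groups. Counting alone would give a CV of 7.31%, 10.8% and 14.7%.

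In the rest of the pathway 1 gene passed the test for exercise. Of 12 tested assembly and associated factors outside the rule, such as the Psmg chaperones, Pomp and Usp14, 0 passed and 9 had positive changes (median 0.11). The one with the smallest p was AI314180, the gene of the proteasome adaptor Ecm29 (0.21, adjusted p = 0.0746). Of 12 transcriptional regulators of proteasome genes 0 passed. Nfe2l1, the factor that raises proteasome genes when the proteasome is impaired, had a change of 0.087 (adjusted p = 0.455), and Bach1, which competes with related factors at antioxidant response elements, 0.48 (adjusted p = 0.0644). All 11 tested ubiquitin, E1 and shuttle factor genes had positive changes (median 0.12), and 0 passed, Ubqln1, a shuttle factor, having the smallest p (adjusted p = 0.188). Of 9 tested muscle ubiquitin ligases 1 rose: Trim55, also called MuRF2, had 53.2, 54.9 and 54.9 CPM in KO exercise and 53.8, 50.9 and 48.4 CPM in WT exercise, against 40.4, 43.1 and 48.4 CPM in KO sedentary and 46.9, 42.9 and 43.5 CPM in WT sedentary (0.25, SE 0.0585, adjusted p = 0.0461). Trim63 (MuRF1) and Fbxo32 (atrogin-1), the ligases best known from muscle atrophy, had changes of 0.91 (adjusted p = 0.114) and 0.26 (adjusted p = 0.327). Nfe2l1, Trim63 and Fbxo32 are described as well-known genes of these lists and fall outside the rule for named genes. Between KO and WT, averaged over conditions, 0 genes of these lists passed.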

How the data were processed

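Gene expression in soleus was analysed from whole-number counts per gene, which the authors deposited as columns of a table. The submitters' processing notes name STAR, featureCounts and mm10, without versions. The sources used here do not give the annotation, the strand setting or how multiply mapped reads were counted. A further 12 columns with values per sample were left unused. Column names give genotype, condition and animal numbers found in no label, so columns were matched to groups, not to single samples. Libraries were treated as separate samples, since the design text gives 3 mice per group, although 2 libraries carry 2 animal numbers.

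Genes were filtered with filterByExpr of edgeR 4.0.16 (minimum count 10; 13886 genes, all 41 members among them), scaled with TMM factors and fitted with a mean per group over all 12 libraries by glmQLFit (robust; 8 residual degrees of freedom) in R 4.3.3. Contrasts were tested with glmQLFTest, two-sided, with Benjamini-Hochberg adjustment over all tested genes and a threshold of 0.05. With 3 libraries against 3, an exact permutation test of a single gene could not go below p = 0.1. CPM were computed here with the TMM factors, and CPM per kb with the longest APPRIS principal transcript of GENCODE vM21. Intervals at 0 counts cover counting error only. Alternatives were RLE factors, other filters, DESeq2 1.42.0, limma-voom (limma 3.58.1), the compared groups alone, Dbp as a covariate and each library left out. Added later were leaving out the 3 libraries with high Alb, leaving out the 2 libraries with 2 animal numbers, and library totals. The fit was tested on simulated data. Coordinates and exon overlaps are from the same annotation. The members, roles, lists and the rule for named genes (the catalytic pairs, Psme1 and Psme2, every member past the threshold, the member with the largest averaged change in each role group for genotype and exercise, and in other lists the genes past the threshold or with the smallest p) were chosen with earlier results of these data known.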

Additional observations from a re-analysis of the deposited data

How the results depend on the processing

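The number of members called for exercise averaged over genotypes was 2, and stayed 2 with RLE factors, either other filter, limma-voom and library totals. It was 5 with DESeq2 (7.3% of all genes called), 4 with Dbp as a covariate (5.78%), 0 without the 3 libraries high in Alb, 0 without the 2 libraries with 2 animal numbers, and 0 to 3 without each library in turn. In KO mice alone DESeq2 called 1 and every other setting run 0. The genotype contrasts gave 0 members under every setting run. Psmb8 kept a negative exercise change in all 21 alternatives (−0.76 to −0.57, adjusted p 0.00355 to 0.0998) and was called in 11. Psmb9 did so too (−0.85 to −0.67, adjusted p 0.00645 to 0.127) and was called in 9. Without the libraries high in Alb their changes were −0.70 and −0.75, and without those with 2 animal numbers −0.62 and −0.83. Both settings also leave fewer libraries, and why the calls were lost was not tested.

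Of 594 values of 28 member fold changes, 555 kept sign and side of the threshold, 22 lost and 3 gained a call, and 14 changed sign. Without each library in turn the interaction of Psmb9 (−0.018) ran from −0.15 to 0.16, and the averaged genotype changes from −0.15 to 0.038 for Psmb8, −0.012 to 0.17 for Psmb9 and −0.090 to 0.017 for Psmc4. Without the libraries high in Alb, the interaction of Psmb8 was 0.15, and the genotype changes of Psmb10 and Psmc4 were 0.035 and 0.042. With library totals the exercise change of Psmb7 was −0.032. The causes were not tested. No paired analysis was possible because the columns carry animal numbers that match no replicate number in the labels. Depth limits Psmb8 and Psmb9, with 24 to 139 counts per library.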
